A study of Mus musculus with 9 samples.

Results

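Chemokine receptors guide dendritic cells (DC) between blood, lymphoid tissue and sites of infection, and 9 of their genes (Xcr1, Ccr2, Ccr6, Ccr7, Ccr9, Cxcr3, Cxcr4, Cxcr5 and Cx3cr1) were followed here across the 3 DC subsets of mouse spleen. The 9 genes were selected by name from the 39179 genes of the count table, and all 9 passed the filter on low counts that left 13819 genes to test. Counts were obtained by RNA-seq from unstimulated wild-type C57BL/6J spleens, in 3 libraries each of conventional DC type 1 (cDC1, labelled CD8 positive), conventional DC type 2 (cDC2, labelled CD8 negative) and plasmacytoid DC (pDC). Each library came from cells pooled from 15 to 17 mice, and the mice of the study were 6 to 12 weeks old, so a replicate is a pool and not an animal. Both conventional subsets were sorted as CD11c hi and CD317 lo, with cDC1 being CD8+ and CD11b- and cDC2 being CD8- and CD11b+, and pDC were sorted as CD11c int, CD317 hi and CD11b-, so no receptor described here was used in the sort.

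Chemokine receptors are membrane proteins that couple to inhibitory G proteins and turn a gradient of a small secreted ligand into directed movement. XCR1 binds XCL1 from activated CD8 T cells and natural killer (NK) cells, and is the classical surface marker of cDC1. CCR7 follows CCL19 and CCL21 into T cell zones, CXCR5 follows CXCL13 into B cell follicles, and CXCR4 binds CXCL12. CCR2, CCR6, CCR9, CXCR3 and CX3CR1 answer to CCL2, to CCL20, to CCL25 of gut and thymus, to the interferon-induced CXCL9, CXCL10 and CXCL11, and to CX3CL1.

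Totals per library lay between 15806597 and 32453789 counts, and replicate 3 had the lowest total in each subset. Levels are given as CPM, the count scaled to a common library total after TMM normalization, on which 3 counts correspond to 0.0908 to 0.203 CPM depending on the library. A list of 6 marker genes was summed for each subset. The pDC list stood at 11000 to 11948 CPM in pDC, 181 to 218 in cDC1 and 261 to 317 in cDC2. The cDC1 list separated the conventional subsets (5104 to 5845 CPM in cDC1, 375 to 479 in cDC2) but stood at 4697 to 5244 in pDC, where its largest gene, the transcription factor gene Irf8, was higher than in cDC1 and the other 5 were lower. Between the conventional subsets 5 of the 6 were called, and Batf3 was not (edgeR adjusted p = 0.229). All 6 genes of the cDC2 list were higher in cDC2 than in cDC1 (sums of 1462 to 1575 and 79.7 to 133 CPM), and 4 of them lower in pDC than in cDC2. The lectin gene Clec10a of that list went the other way, at 582 ± 73.0 CPM in pDC and 18.3 ± 4.61 in cDC2 (SD, n = 3). The libraries of replicate 3 stood apart in immediate-early and heat-shock genes, which summed to 3988 to 6177 CPM there and to 1564 to 3431 CPM in the other 6 libraries.

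The receptor genes are protein-coding, and 5 of the 9 lie on chromosome 9 of the GRCm38 build. Xcr1 (ENSMUSG00000060509, chr9:123852315-123862029, minus strand, 2 exons) is 67984 bases beyond the end of Ccr9 (ENSMUSG00000029530, chr9:123678439-123784330, plus strand). Ccr2 (ENSMUSG00000049103, chr9:124101950-124113557, plus strand) follows at a further 239920 bases. Cx3cr1 (chr9:119901616-120069879) and Cxcr5 (chr9:44511787-44561877) lie farther away on the minus strand of the same chromosome. The others are Ccr6 (chr17:8236043-8257141, plus strand), Ccr7 (chr11:99144196-99155077, minus strand), Cxcr3 (chrX:101731535-101734269, minus strand) and Cxcr4 (chr1:128588199-128592293, minus strand).

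Xcr1 and Ccr9 lie near each other and lead in different subsets, so the bases just upstream of their RefSeq starts (GRCm38.p6) are shown. The stretch of Xcr1 is chr9:123862030-123862279 on the minus strand, and that of Ccr9 is chr9:123766961-123767168 on the plus strand, 42 bases short of its start, where annotated exon begins. The capitals mark CAGGTG, the letters of an E-box to which E proteins bind.
Xcr1: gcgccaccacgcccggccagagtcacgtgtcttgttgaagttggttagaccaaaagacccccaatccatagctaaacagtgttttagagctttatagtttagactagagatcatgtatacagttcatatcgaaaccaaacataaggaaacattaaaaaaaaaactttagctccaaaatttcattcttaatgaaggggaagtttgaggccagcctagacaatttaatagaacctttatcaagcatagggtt
Ccr9: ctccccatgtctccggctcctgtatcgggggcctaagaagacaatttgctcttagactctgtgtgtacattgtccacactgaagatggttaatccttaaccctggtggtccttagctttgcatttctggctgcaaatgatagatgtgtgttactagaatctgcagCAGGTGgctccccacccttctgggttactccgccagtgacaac

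Promoter entries were found for 7 of the 9 receptors, and Ccr7 and Cxcr5 had none. Within 250 bases upstream, on both strands, the letters searched were CAGGTG (E-box), GAGGAA (ETS factors), TGTGGT (RUNX factors), TGANTCA (AP-1) and GAAA followed by any 2 bases and GAAA (IRF factors). CAGGTG was present upstream of Ccr9 (85 bases before the start) and Cxcr3 (116 bases before), both highest in pDC, and in 17.2% of all 32851 windows of this length. Both sites are shown with 12 bases on each side, chr9:123767114-123767143 on the plus strand for Ccr9 and chrX:101734246-101734275 on the minus strand for Cxcr3.
Ccr9 site: tagaatctgcagCAGGTGgctccccaccct
Cxcr3 site: tctaagtgtattCACCTGaccacaggcgtg
TGTGGT was found upstream of Cxcr3 (on the other strand, directly after the E-box) and of Cx3cr1, against 14.0% of all windows. GAGGAA was found upstream of Cxcr3 and Ccr6, against 23.3% of all windows. The AP-1 letters (6.75% of all windows) and the IRF letters (2.98%) were in no window of the 7 receptors. Xcr1, Cxcr4 and Ccr2, the last also highest in pDC, held no match. Annotated exon of the same gene covered 42 of the 250 bases for Ccr9, 122 for Cxcr3, 233 for Ccr2 and all 250 for Cx3cr1. The matches of Cxcr3 and Cx3cr1 lay within that exon, and those of Ccr9 and Ccr6 did not. A match is a description of letters and not a binding site, and nothing was measured here at these positions.

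Of the 9 receptors, 8 differed among the subsets in edgeR's quasi-likelihood test, where 56.0% of all genes tested did, with adjusted p between 8.95e-09 (Ccr9) and 0.0214 (Cxcr5). Cxcr4 did not pass, with an adjusted p of 0.0707. Between pDC and cDC1, 6 receptors were called against 48.6% of all genes: Ccr2, Ccr6, Ccr9 and Cxcr3 were higher in pDC (24.3% of all genes were) and Xcr1 and Ccr7 lower (24.4%). Between pDC and cDC2, 8 were called against 45.8%: Ccr2, Ccr9 and Cxcr3 were higher in pDC (22.5%) and Xcr1, Ccr6, Ccr7, Cxcr5 and Cx3cr1 lower (23.3%). Between cDC2 and cDC1, 6 were called against 24.4%: Ccr2, Ccr6 and Cx3cr1 were higher in cDC2 (12.7%) and Xcr1, Ccr9 and Cxcr3 lower (11.7%). The median size of the receptors' difference, ignoring sign, was 1.78, 3.05 and 1.86 on the log2 scale in these 3 comparisons, against 0.63, 0.59 and 0.36 over all genes tested. Every called difference had one sign in 3 of 3 pairs of libraries that share a date code in the labels. In bulk RNA, fewer cells with a transcript and less transcript per cell cannot be told apart.

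**Figure D1:**
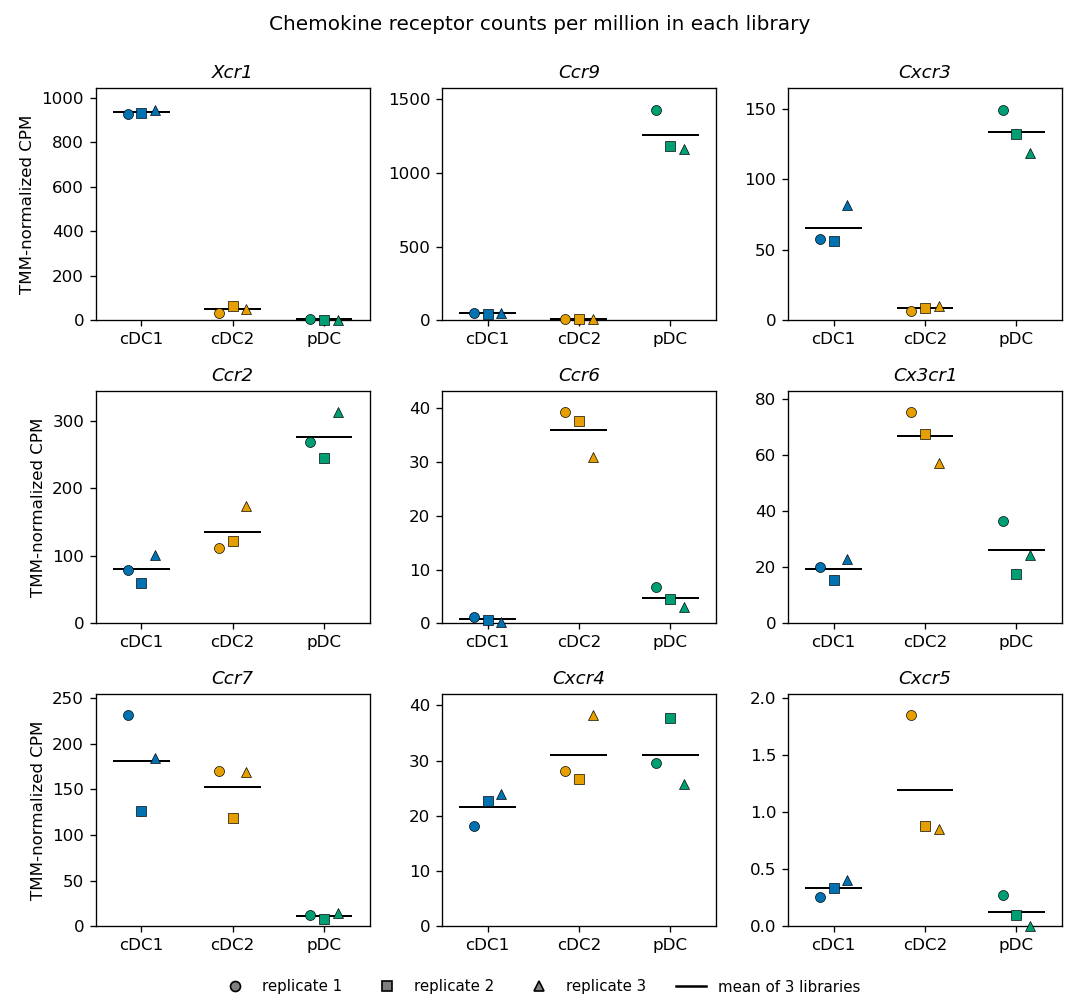
TMM-normalized CPM (linear axes that start at 0) of the 9 receptors in each of the 9 libraries, 3 per subset, with the marker shape giving the replicate number and the bar the mean. The highest subset was cDC1 for Xcr1 (929 to 947 CPM), pDC for Ccr9 (1164 to 1431 CPM) and cDC2 for Ccr6 (30.9 to 39.2 CPM), while the libraries of Cxcr4 overlapped between cDC2 and pDC.

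Xcr1 was the receptor of cDC1. Its levels were 929, 933 and 947 CPM in cDC1 replicates 1 to 3, 33.5, 64.9 and 50.5 CPM in cDC2, and 8.89, 1.37 and 3.65 CPM in pDC. No library of one subset reached the range of another, and cDC1 averaged 936 ± 9.33 CPM (SD, n = 3). The mean in cDC1 was 18.9-fold that in cDC2 and 202-fold that in pDC. By edgeR the log2 fold change was -4.24 (SE 0.515, adjusted p = 0.000254) in cDC2 against cDC1 and -7.60 (SE 0.610, adjusted p = 5.21e-06) in pDC against cDC1. The pDC were also below cDC2, by a log2 fold change of -3.36 (SE 0.514, edgeR adjusted p = 0.000463). The pDC value rested on 294, 27 and 62 counts, and without pDC replicate 1 these last 2 differences were -8.56 and -4.32. Of the 6 cDC1 marker genes, 3 (Batf3, Cadm1 and Itgae) were also highest in replicate 1 among the pDC libraries, and 3 (Cd8a, Clec9a and Irf8) were highest in replicate 3. The part of cDC1 cells in the Xcr1 counts of pDC was not tested.

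Ccr9, the gut and thymus homing receptor, was the receptor of pDC. It was measured at 1431, 1183 and 1164 CPM in pDC, at 47.4, 45.3 and 51.3 CPM in cDC1 and at 10.2, 7.66 and 10.1 CPM in cDC2. The 3 ranges were separate, and the means of pDC were 26.2-fold those of cDC1 and 135-fold those of cDC2. Against cDC1 the log2 fold change of pDC was 4.71 (SE 0.152, edgeR adjusted p = 3.35e-08). Against cDC2 it was 7.08 (SE 0.171, edgeR adjusted p = 2.52e-08). The cDC2 were below cDC1 by a log2 fold change of -2.37 (SE 0.141, edgeR adjusted p = 4.49e-06). Exons of Ccr9 overlap other annotated genes, and 19.3% of its 75-base windows recur in another transcript. Gm17200, which overlaps it on the same strand, had 0 to 52 counts per library and none in pDC, and how shared reads were counted is not given in the sources used here.

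Cxcr3, the receptor for interferon-induced chemokines, was shared by pDC and cDC1. Its levels were 149.5, 132 and 119 CPM in pDC, 57.6, 56.4 and 82.1 CPM in cDC1, and 6.88, 8.96 and 10.6 CPM in cDC2. All 3 pDC libraries exceeded all cDC1 libraries, which in turn exceeded all cDC2 libraries. By edgeR, pDC exceeded cDC1 by a log2 fold change of 1.03 (SE 0.192, adjusted p = 0.00150) and cDC2 by 3.93 (SE 0.217, adjusted p = 5.00e-07). The cDC2 were 7.41-fold below cDC1 in their mean, with a log2 fold change of -2.89 (SE 0.208, edgeR adjusted p = 1.12e-05).

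Ccr2, through which cells leave the bone marrow and enter tissue, rose from cDC1 through cDC2 to pDC. The 3 libraries gave 79.0, 60.3 and 101 CPM in cDC1, 111, 122 and 173 CPM in cDC2, and 269, 244 and 312 CPM in pDC. No ranges overlapped, and replicate 3 was the highest library in each subset. By edgeR, pDC exceeded cDC1 by 1.78 (SE 0.220, adjusted p = 0.000102) and cDC2 by 1.02 (SE 0.216, adjusted p = 0.00333) on the log2 scale. The difference between cDC2 and cDC1 was smaller, 0.76 (SE 0.215, edgeR adjusted p = 0.0284). That call was lost without cDC1 replicate 1 (0.75, adjusted p = 0.0842), without cDC1 replicate 2 (0.59, adjusted p = 0.0944) and without cDC2 replicate 3 (0.52, adjusted p = 0.112) in edgeR. Ccr2 also marks inflammatory monocytes, whose marker list (with macrophages) summed to 2471 to 3492 CPM in pDC, 752 to 1007 in cDC2 and 295 to 403 in cDC1. In pDC most of that sum was Ly6c2 (1954 to 2714 CPM), and 2 of the 9 listed genes were higher than in cDC1, against 24.3% of all genes. With the replicate block 4 were higher and 1 lower, where 4038 and 4056 of all 13819 genes were. The part of monocytes in the Ccr2 level was not tested.

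Ccr6 and Cx3cr1 were highest in cDC2, as was the little-expressed Cxcr5 described further on. Ccr6, the CCL20 receptor, was at 39.2, 37.7 and 30.9 CPM in cDC2, at 6.72, 4.51 and 3.12 CPM in pDC, and at 1.27, 0.625 and 0.271 CPM in cDC1. The ranges were separate, with the cDC1 level resting on 35, 15 and 4 counts. The mean of cDC2 was 49.7-fold that of cDC1 and 7.52-fold that of pDC. By edgeR the log2 fold change was 5.53 in cDC2 against cDC1 (SE 0.453, adjusted p = 2.46e-05) and -2.89 in pDC against cDC2 (SE 0.381, adjusted p = 0.000174). The pDC exceeded cDC1 by 2.64 on the log2 scale (SE 0.433, edgeR adjusted p = 0.000680). Without cDC1 replicate 1 the differences from cDC1 were 6.22 for cDC2 and 3.33 for pDC.

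Cx3cr1, the fractalkine receptor of monocytes and macrophages, was at 75.1, 67.4 and 57.2 CPM in cDC2, at 36.3, 17.4 and 24.3 CPM in pDC, and at 20.0, 15.3 and 22.9 CPM in cDC1. The cDC2 libraries lay above all others, and those of pDC and cDC1 overlapped. On the log2 scale cDC2 exceeded cDC1 by 1.78 (SE 0.261, edgeR adjusted p = 0.000803). The log2 fold change of pDC against cDC2 was -1.35 (SE 0.256, edgeR adjusted p = 0.00180). The pDC and cDC1 were not separated by edgeR, with a log2 fold change of 0.43 (adjusted p = 0.197) and a 95% interval (normal, from the SE) from -0.073 to 0.93. Adgre1 (F4/80), a macrophage marker, was also highest in cDC2, at 308 to 389 CPM, against 6.88 to 17.7 in cDC1 and 4.15 to 20.0 in pDC. Of the 9 monocyte and macrophage genes, cDC2 exceeded cDC1 in 6, against 12.7% of all genes. Against pDC, cDC2 was higher in 1 of the 9 (Adgre1, 23.3% of all genes) and lower in 2 (Cd68 and Ly6c2, 22.5%). With the replicate block cDC2 was higher than pDC in 6 and lower in 2, where 3922 and 3741 of all 13819 genes were. The part of such cells in the Cx3cr1 level was not tested.

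Ccr7, the lymph node homing receptor of mature DC, was a receptor of both conventional subsets. It was at 231, 126 and 185 CPM in cDC1, at 169, 118 and 169 CPM in cDC2, and at 12.2, 8.26 and 14.5 CPM in pDC. The 2 conventional subsets overlapped and every pDC library lay far below them. By edgeR, pDC were lower than cDC1 by a log2 fold change of -3.95 (SE 0.291, adjusted p = 2.99e-06) and lower than cDC2 by -3.71 (SE 0.288, adjusted p = 4.63e-06). Between cDC2 and cDC1 the log2 fold change was -0.24 (edgeR adjusted p = 0.563), with a 95% interval from -0.74 to 0.25.

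A list of 12 other DC maturation genes had 11 members tested, and all 11 were lower in pDC than in either conventional subset, against 24.4% and 23.3% of all genes. Their median log2 fold change was -4.03 against cDC1 and -4.04 against cDC2, beside 0.02 and -0.01 over all genes tested. The largest were Ccl22 (-6.11 against cDC1), which encodes a chemokine for regulatory T cells, the costimulator Cd86 (-5.20 against cDC1) and Marcksl1 (-5.02 against cDC2). In cDC1 the library with the highest Ccr7 (replicate 1) also had the most Fscn1, an actin-bundling protein of mature DC, at 428 CPM against 230 and 284 in replicates 2 and 3. Between cDC2 and cDC1, 2 of the 11 were higher (Relb 1.73, Il4i1 1.05) and 2 lower (Cd86 -2.02, Ccl22 -1.36) on the log2 scale, against 12.7% and 11.7% of all genes. With the replicate block 8 of the 11 were called, 6 higher and 2 lower, where 2558 and 2358 of all 13819 genes were.

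**Figure D2:**
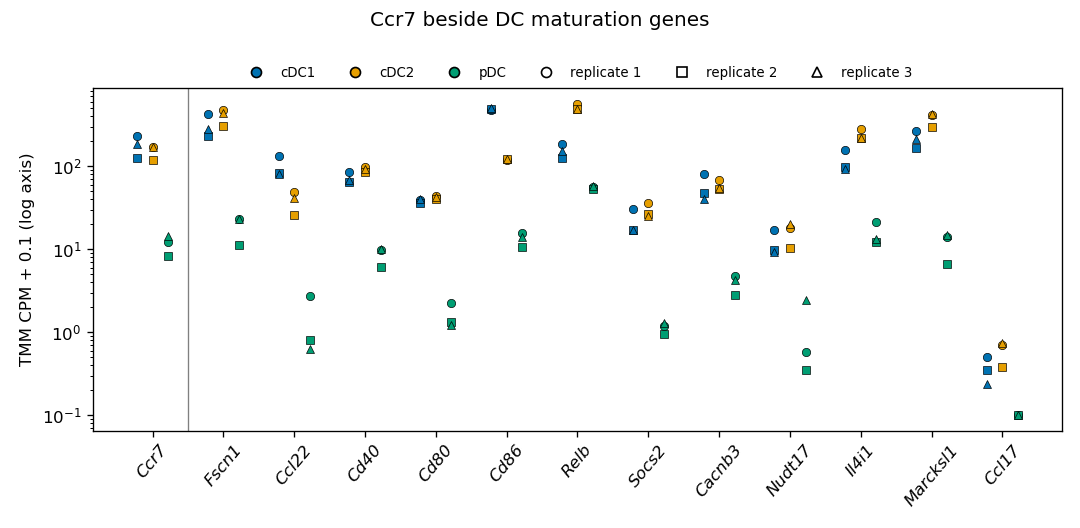
TMM CPM plus 0.1 (log axis) of Ccr7, left of the grey line, and of 12 DC maturation genes in each library, with colour for subset and shape for replicate. Every pDC point of Ccr7 (8.26 to 14.5 CPM) lies below every point of cDC1 and cDC2, and the same was seen for the other genes (Ccl17, with too few counts to test, is at 0 in pDC).

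Cxcr4, a receptor with broad expression in leukocytes, differed least. It was at 18.2, 22.8 and 23.9 CPM in cDC1, at 28.2, 26.6 and 38.2 CPM in cDC2, and at 29.6, 37.7 and 25.7 CPM in pDC. The cDC1 libraries lay below the other 6, whose ranges overlapped. For pDC against cDC1 the log2 fold change was 0.52 (SE 0.197, edgeR adjusted p = 0.0512), just outside the threshold. With the replicate block, which pairs libraries by date, it was 0.53 (edgeR adjusted p = 0.0326), and without replicate 3 of every subset it was 0.68 (edgeR adjusted p = 0.00757). Between cDC2 and cDC1 it was 0.52 (edgeR adjusted p = 0.0871), which passed, among the alternatives run, only when libraries were scaled by total counts alone (0.63, adjusted p = 0.0461). Between pDC and cDC2 it was 0.0032 (edgeR adjusted p = 0.991), with a 95% interval from -0.38 to 0.39.

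Cxcr5, the follicle homing receptor, was near the limit of detection. It gave 58, 25 and 16 counts in cDC2 (1.85, 0.875 and 0.850 CPM), 7, 8 and 6 counts in cDC1 (0.255, 0.333 and 0.406 CPM), and 9, 2 and 0 counts in pDC (0.272, 0.101 and 0 CPM). The cDC2 libraries lay above the others, and pDC overlapped cDC1. By edgeR, pDC were lower than cDC2 by a log2 fold change of -3.05 (SE 0.840, adjusted p = 0.0138). This was -4.35 without pDC replicate 1, and the call was lost without cDC2 replicate 1 (-2.61, adjusted p = 0.0716) and without pDC replicate 2 (-2.92, adjusted p = 0.0591). Between cDC2 and cDC1 the difference was 1.86 (SE 0.784, edgeR adjusted p = 0.123). It passed when only these 6 libraries were fitted (1.87, adjusted p = 0.0361), without pDC replicate 3 (1.86, adjusted p = 0.0392) and without replicate 3 of every subset (2.18, adjusted p = 0.0219). Between pDC and cDC1 it was -1.20 (edgeR adjusted p = 0.287). Without pDC replicate 1 that difference was -2.50, also not called. Bcl9l lies over Cxcr5 on the other strand with 67 to 796 counts per library, 1.11% of Cxcr5's windows recur elsewhere, and whether counting used the strand is not given in the sources used here.

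Cxcr5 is also a B cell gene, as are Ccr6 and Ccr7. The summed level of 7 B cell markers was 45.5 to 51.5 CPM in cDC1, 31.3 to 34.8 in cDC2 and 3.59 to 8.21 in pDC. In the conventional subsets Ms4a1 made up most of it (44.1 to 49.9 CPM in cDC1), while Fcer2a was higher in cDC2 (2.91 ± 0.273 CPM, SD, n = 3) than in cDC1 (0.590 ± 0.143), with an edgeR adjusted p of 0.00214. The summed level of 7 NK cell markers was 30.6 to 80.3 CPM in cDC1, 148 to 243 in cDC2 and 143 to 235 in pDC, and that of 7 T cell markers 4.44 to 21.9 CPM over all libraries. No gene of these 3 lists was at 0 in all libraries of a subset. Klrd1 made up most of the mean NK cell sum, averaging 150 CPM (pDC), 140 CPM (cDC2) and 34.7 CPM (cDC1). Gzma and Ncr1 averaged at most 20.4 and 6.42 CPM in any subset. Of the 7 NK cell markers, edgeR called only Klrd1 higher in pDC than in cDC1, against 24.3% of all genes. It called Klrd1 and Ncr1 higher in cDC2 than in cDC1, against 12.7% of all genes. With the replicate block, 2 and 6 of the 7 were higher in these comparisons, where 4038 and 2558 of all 13819 genes were. The part of B, NK and T cells in the levels of Cxcr3 and the other receptors was not tested.

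**Figure D3:**
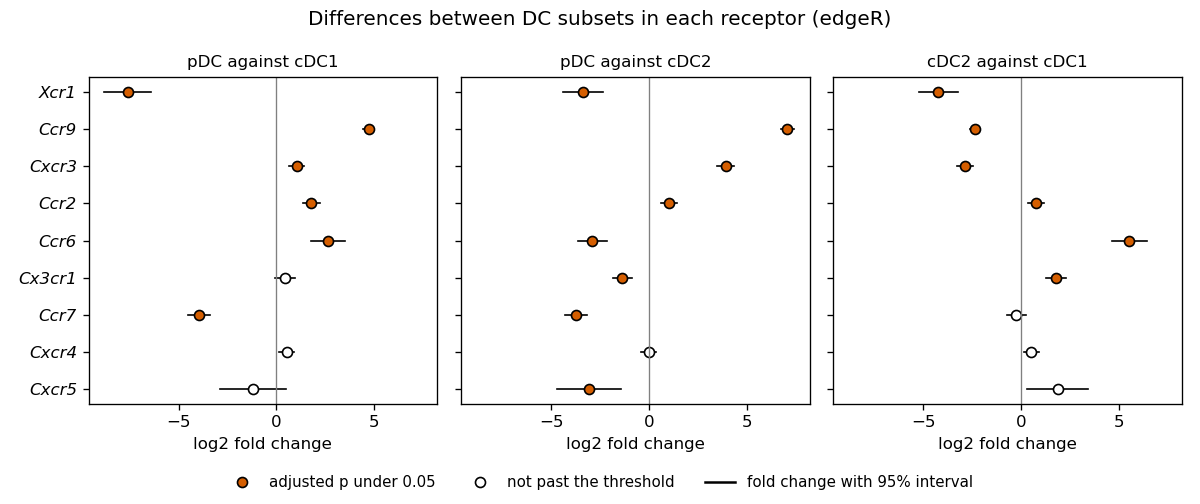
Log2 fold changes of the 9 receptors in the 3 comparisons, by edgeR over all 9 libraries, with bars for the 95% interval from the SE and filled points for an adjusted p under 0.05. The widest separations were Ccr9 in pDC against cDC2 (7.08) and Xcr1 in pDC against cDC1 (-7.60), and Cxcr4 in pDC against cDC2 lay at 0.0032.

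Levels of different receptors were compared only per kilobase of exon. In cDC1 the order by mean CPM per kb was Xcr1 (210 ± 2.09, SD, n = 3), Ccr7 (91.2 ± 26.6), Cxcr3 (37.8 ± 8.37), Cxcr4 (11.96 ± 1.66), Ccr2 (11.8 ± 2.99), Ccr9 (4.68 ± 0.296), Cx3cr1 (4.31 ± 0.844), Ccr6 (0.312 ± 0.219) and Cxcr5 (0.0995 ± 0.0227). The libraries of Cxcr4 and Ccr2, of Ccr9 and Cx3cr1, and of Ccr6 and Cxcr5 overlapped, so these neighbours were not separated beyond their spread. Xcr1 alone made up 56.7% ± 4.97 of the summed level per kb of the 9 receptors in cDC1.

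In cDC2 Ccr7 came first at 77.0 ± 14.8 CPM per kb, which was 47.3% ± 5.43 of the sum. It was followed by Ccr2 (20.0 ± 4.92), Cxcr4 (17.1 ± 3.48), Ccr6 (15.5 ± 1.91), Cx3cr1 (14.8 ± 1.99) and Xcr1 (11.1 ± 3.53), each of which overlapped the next. Cxcr3 (5.10 ± 1.08), Ccr9 (0.909 ± 0.140) and Cxcr5 (0.357 ± 0.171) were lower and separate. With the longest transcript as the length, Ccr6 stood at 20.5 CPM per kb, between Ccr2 and Cxcr4.

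In pDC the order per kb was Ccr9 (123 ± 14.5), Cxcr3 (77.1 ± 8.85), Ccr2 (40.7 ± 5.09), Cxcr4 (17.2 ± 3.39), Ccr7 (5.90 ± 1.61), Cx3cr1 (5.77 ± 2.12), Ccr6 (2.06 ± 0.782), Xcr1 (1.04 ± 0.867) and Cxcr5 (0.0374 ± 0.0413). Ccr9 made up 45.0% ± 1.18 of the sum and Cxcr3 28.3% ± 1.43. Ccr7 and Cx3cr1 overlapped, as did Ccr6 and Xcr1, and the others were separate. With the longest transcript as the length Ccr9 was higher, at 242 in pDC, 9.24 in cDC1 and 1.79 in cDC2 CPM per kb.

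**Figure D4:**
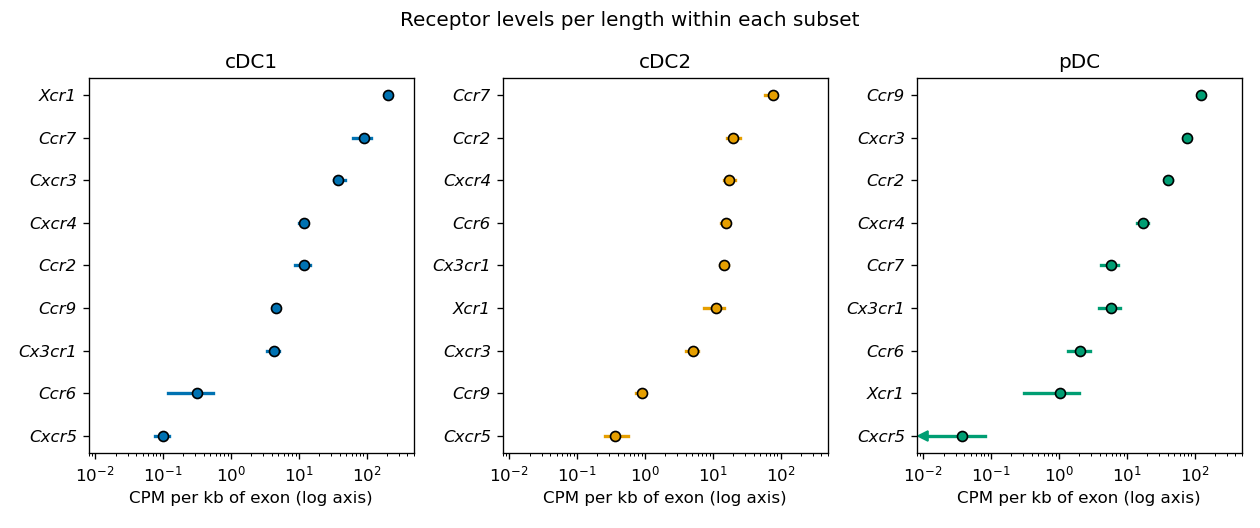
Mean level of each receptor in CPM per kb of exon (log axis), ordered within cDC1, cDC2 and pDC, with lines from the lowest to the highest of 3 libraries and an arrow where the lowest was 0. Xcr1 leads in cDC1 (210), Ccr7 in cDC2 (77.0) and Ccr9 in pDC (123).

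Other receptors of the family were at low levels. Ccr10, the CCL27 and CCL28 receptor, was at 1.02 ± 0.477 CPM in pDC (SD, n = 3) and under the level of 3 counts on average in the conventional subsets, and was called higher in pDC (edgeR adjusted p = 0.00419 against cDC1 and 0.00450 against cDC2). Ccr1, Ccr3 and Cxcr6 were not called in edgeR's main fit of all 9 libraries, with subset as the only term. With the replicate block Ccr3 was called higher in pDC than in cDC1 (log2 fold change 1.19, edgeR adjusted p = 0.0156). Without replicate 3 of every subset, Ccr1, an inflammatory receptor, was called higher in pDC than in cDC1 (log2 fold change 0.70, edgeR adjusted p = 0.0458) and cDC2 (1.09, edgeR adjusted p = 0.00907). Ccr1l1, Ccr4, Ccr8, Cxcr1 and Cxcr2 had too few counts.

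Ccr9, Xcr1 and Ccr2 belong to a run of receptor genes on chromosome 9. Between Ccr9 and Ccr2, Xcr1 was called lower in pDC than in cDC1, and both ends of this stretch were called higher. Fyco1 and Lztfl1, which are not receptors and lie within the run, had log2 fold changes of 0.62 and -0.27 there and were not called by edgeR (adjusted p = 0.297 and 0.182). With the replicate block Fyco1 was called higher in pDC (0.55, edgeR adjusted p = 0.00959).

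**Figure D5:**
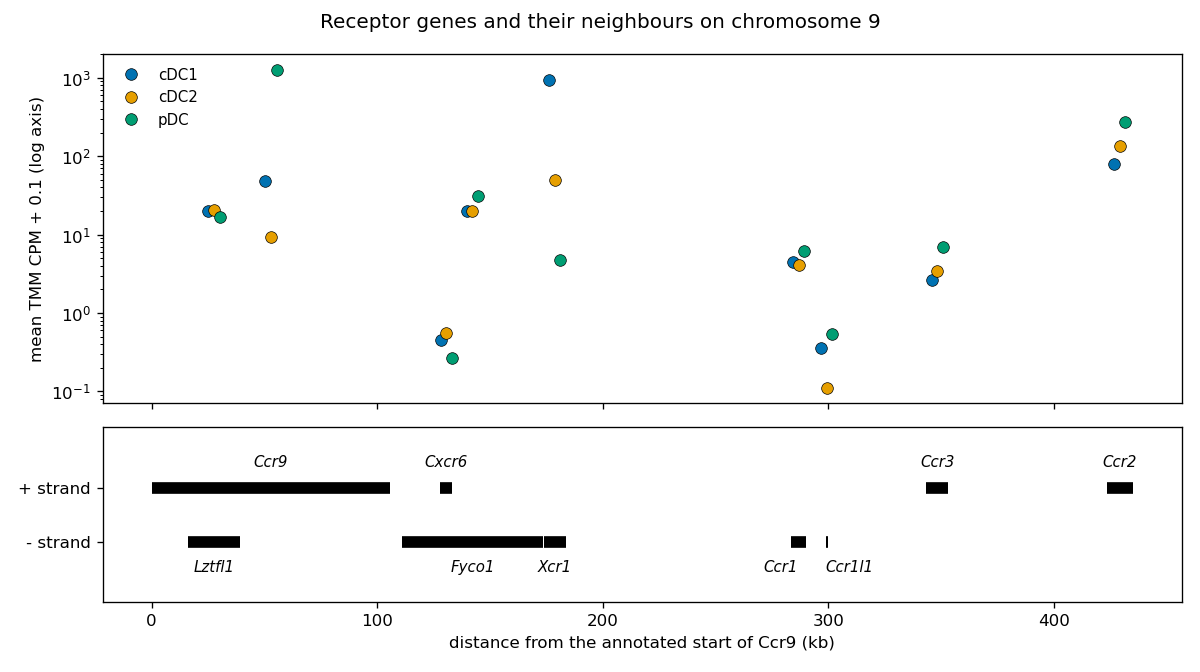
Mean TMM CPM plus 0.1 (log axis) of 9 genes in each subset above their place on chromosome 9, as distance in kb from the annotated start of Ccr9. Points are moved sideways by subset to be visible. The pDC mean is highest at Ccr9 and Ccr2, while that of cDC1 is highest at Xcr1, which lies between them.

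Among atypical chemokine receptors, a class without G protein signalling, 2 of 5 were tested and both were highest in cDC2. The level of Ackr1 was 15.2 ± 3.61 CPM in cDC2, against 1.62 ± 0.580 for cDC1 and 0.111 ± 0.192 for pDC (SD, n = 3). Ccrl2 was at 89.2 ± 45.0 CPM in cDC2, with 61.5, 65.0 and 141 in its libraries, against 9.94 ± 6.41 in cDC1 and 3.78 ± 3.41 in pDC. By edgeR the log2 fold changes of cDC2 against cDC1 were 3.21 for Ackr1 (adjusted p = 0.00292) and 3.19 for Ccrl2 (adjusted p = 0.00522). Ccrl2 in pDC against cDC1 was not called (-1.42, edgeR adjusted p = 0.103). It was called with the replicate block and without replicate 3 of every subset, where both atypical genes were called. With the block, 4038 of all 13819 genes were higher in that comparison and 4056 lower. Without replicate 3 of every subset, 4459 of 14221 genes were higher and 4499 lower. Ackr2 and Ackr3 had too few counts and Ackr4 was at 0 in every library.

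Of 14 genes for ligands of these receptors, 10 were tested. In pDC, 4 were lower than in either conventional subset (Cxcl9, Cxcl10, Cx3cl1 and Ccl2, the last at 0 in pDC), against 24.4% and 23.3% of all genes. Ccl2 and Cx3cl1 were low in the conventional subsets too, with means of 0.743 and 1.94 CPM in cDC1 and 0.688 and 0.568 in cDC2. The CXCR3 ligand Cxcl9 was at 608, 558 and 607 CPM in cDC1, at 55.5, 54.0 and 55.3 in cDC2 and at 7.87, 1.98 and 6.54 in pDC. It was highest in cDC1, whose own Cxcr3 lay between the other subsets. Cxcl9 was the only ligand called between cDC2 and cDC1 (log2 fold change -3.43, edgeR adjusted p = 9.80e-05), against 24.4% of all genes. Without replicate 3 of every subset 3 were called, where 2637 of 14221 genes were higher and 2719 lower. The median log2 fold change of the 10 was -1.38 in pDC against cDC1 and -1.84 against cDC2, beside 0.02 and -0.01 over all genes. Ccl7, Ccl12, Ccl19 and Ccl20 had too few counts.

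The genes that act below the receptors were also unlike between subsets. Of 20 signalling genes tested, pDC were higher in 5 and lower in 9 against each conventional subset, where 48.6% (cDC1) and 45.8% (cDC2) of all genes were called, with median log2 fold changes of -0.38 against cDC1 and -0.32 against cDC2. Rasgrp2, an activator of Rap1 in integrin-dependent adhesion, was at 105 ± 7.51 CPM in pDC, 19.7 ± 1.96 in cDC2 and 6.10 ± 0.926 in cDC1. Its log2 fold change in pDC was 4.12 against cDC1 and 2.42 against cDC2. The GTPase Rac2 was also higher in pDC (2.49 and 1.38), and the Rac regulator Elmo1 (-1.68 and -2.66) and the PI3-kinase subunit Pik3r6 (-3.16 and -4.78) were lower. Between cDC2 and cDC1, 6 were higher and 1 lower (median 0.18, 0.03 over all genes), against 24.4% of all genes called. That count of 7 was 13 with the replicate block, where 2558 of all 13819 genes were higher and 2358 lower. It was also 13 without replicate 3 of every subset, where 2637 of 14221 genes were higher and 2719 lower.

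Receptor desensitisation is carried out by G protein-coupled receptor kinases, arrestins and RGS proteins. Of 13 such genes tested, 3 were higher and 6 lower in pDC than in cDC1, 4 higher and 9 lower in pDC than in cDC2, and 6 higher and 3 lower in cDC2 than in cDC1. Of all genes, 48.6%, 45.8% and 24.4% were called in these comparisons. The medians were -0.43, -0.97 and 0.35 on the log2 scale. The kinase Grk5 measured 27.9 ± 2.95 CPM for cDC1, 16.8 ± 2.36 for cDC2 and only 1.75 ± 0.468 for pDC, and its log2 fold change in pDC was -3.96 against cDC1 and -3.23 against cDC2. Arrb1, which encodes an arrestin, was lower in pDC by -3.05 and -1.86. Rgs2 and Rgs3, which shorten G protein signals, were lower in pDC as well (-1.95 and -2.84 against cDC1, -3.09 and -4.37 against cDC2). In cDC2 against cDC1 they were higher, at 1.14 and 1.53, while Arrb1 was lower at -1.19.

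The genes most like each receptor were sought among 11132 tested genes by the root mean square difference of centred log2(CPM + 1) over the 9 libraries. The nearest to Xcr1 were A530099J19Rik (0.239) and Gcsam (0.352), and the nearest to Ccr9 were Cd8b1 (0.189), which encodes the CD8 beta chain, and Slc41a2 (0.459). Cxcr3 was nearest to the transcription factor gene Irf8 (0.253) and to Mpeg1 (0.278), which encodes perforin-2. Irf8 had mean levels of 4242 CPM in pDC, 2555 in cDC1 and 269 in cDC2. Ccr7 was nearest to Nr4a3 (0.240) and Zmynd15 (0.280), and Ccr2 to the cathepsin gene Ctsh (0.149) and 1600014C10Rik (0.159). Ccr6 was nearest to the matrix protease gene Mmp14 (0.432) and Cass4 (0.437), and Cx3cr1 to Slc25a37 (0.226) and Gm9025 (0.265). Cxcr4 was nearest to Fam78a (0.126) and B4galt3 (0.133), and Cxcr5, whose differences the added 1 flattens, had Fam105b (0.171) among its nearest genes. When likeness was measured over the 3 subset means, both neighbours of Xcr1 were found again, 1 each of Ccr6, Ccr9 and Cxcr3, and 0 for the other 5 receptors.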

How the data were processed

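RNA from 9 libraries of sorted spleen DC was sequenced as 75-base single reads (TruSeq Stranded mRNA). The authors deposited 1 table of raw counts per gene (39179 genes), and the submitters' processing notes name STAR, SAMtools, featureCounts, MultiQC and the mm10 build, while the annotation and the strand setting are not given in the sources used here. From the deposited counts, edgeR 4.0.16 (R 4.3.3) was used, after filterByExpr with a minimum count of 10 had left 13819 genes. Library size was the total count, TMM factors were applied, and all 9 libraries were fitted with subset as the only term. The quasi-likelihood test was used with Benjamini-Hochberg adjustment over all genes tested and a threshold of 0.05. The study's methods name Degust without a statistical method. SE is the absolute log2 fold change divided by the root of the F statistic.

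The same replicate number carries the same date code in the labels, and deviations from the subset means correlated in every same-numbered pair (0.266 to 0.543 over 9 pairs). Replicates are separate pools by their numbers, and they differed beyond sampling noise (chi-square per degree of freedom 10.4 to 66.4). Positions and exon lengths came from GENCODE M21 (GRCm38), and promoters from RefSeq. The test was tried on simulated data. DESeq2 1.42.0, limma-voom (limma 3.58.1), library size only, upper quartile, other filters, the replicate block, the 6 libraries compared, and leaving out each library were the alternatives.

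The receptors and gene lists were chosen with earlier results of these data known. Besides the receptors, the genes named are those of the lists with the largest called difference (up to 4 per list and comparison), receptors and ligands with too few counts, marker genes, and the 2 genes nearest to each receptor among genes averaging 100 or more counts in their highest subset. Fscn1, Fyco1 and Lztfl1, and the macrophage, B cell and cDC marker genes given beside receptors, were chosen from the lists after their values were seen. No column of values was left out. Some genes that the rule names are not reported here.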

Additional observations from a re-analysis of the deposited data

How the results depend on the processing

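For the 9 receptors in 3 comparisons, 453 of 479 values under an alternative kept their direction and their side of the threshold, 5 lost the call, 12 gained it and 9 changed sign. The sign changes were all in Cxcr4 between pDC and cDC2, which was never called: -0.0099 with library size only, -0.015 with the upper quartile, -0.0022 with DESeq2, -0.022 with at least 10 counts in every library, -0.0042 with the 6 libraries compared, and -0.165 to 0.172 over the fits that left out 1 library each. The losses were of Ccr2 and Cxcr5, and the gains of Cxcr4 and Cxcr5, as given with those genes. Beyond those, Cxcr4 between pDC and cDC1 was called with library size only (0.62, adjusted p = 0.0278), DESeq2 (0.51, adjusted p = 0.0439), limma-voom (0.54, adjusted p = 0.0423), at least 10 counts in every library (0.52, adjusted p = 0.0491), without cDC2 replicate 3 (0.49, adjusted p = 0.0425) and without pDC replicate 3 (0.64, adjusted p = 0.0254). The number of receptors called stayed within 6 to 7 (pDC against cDC1), 6 to 8 (pDC against cDC2) and 5 to 7 (cDC2 against cDC1). The fit without replicate 3 of every subset was added after the data were seen. Scaling by library size alone moved the median of all genes between cDC2 and cDC1 by 0.110 on the log2 scale, and changed the genes called from 1760 higher and 1610 lower to 2201 and 1287. The replicate block changed no call among the 9 receptors other than that of Cxcr4. Ccr6 and Cxcr5 had no value with at least 10 counts in every library, since both fell below it. Depth limits Cxcr5 and the cDC1 level of Ccr6 most, at 0 to 58 and 4 to 35 counts.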
